A study of Mus musculus with 6 samples.

Results

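A set of 10 genes that act on stored mRNA in male germ cells was read out in whole mouse testis. They are the Y-box proteins Ybx1 and Ybx2, the poly(A)-binding protein Pabpc1, the poly(A) polymerase Papolb, the DAZ-family proteins Dazl and Boll, the cytoplasmic polyadenylation element binding proteins Cpeb1 and Cpeb2, and the AU-rich or GU-rich element binding proteins Elavl1 and Celf1. The genes were taken by symbol from the deposited gene tables, which held all 10 among 24411 genes. All 10 also passed the filter on low counts, which left 17110 genes for testing. RNA was sequenced from 3 C57BL/6 mice labelled MRP5-/- and MRP9-/- (labelled DKO here) and from 3 age-matched C57BL/6 mice labelled Wildtype (WT here). The proteins MRP5 and MRP9 are membrane transporters encoded by Abcc5 and Abcc12. The age of the mice, the design of the alleles and the controls' relation to the mutants are not given in the sources used here. Whole testis holds germ cells of every stage together with Sertoli, Leydig and peritubular cells, so in these bulk samples fewer cells of a type and less RNA per cell cannot be told apart.

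Late in spermatogenesis the nucleus is compacted and transcription stops, so many mRNAs are made early, stored with proteins and translated later. Y-box proteins package such mRNA. Proteins of the CPEB, DAZ, CELF and ELAV families read short elements in the untranslated region after the stop codon, and they set the length of the poly(A) tail, the stability of the mRNA or its entry into translation. The tail is bound by poly(A)-binding proteins, lengthened by poly(A) polymerases and shortened by deadenylases.

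DKO-labelled libraries held 42673615 to 67131103 expected counts and WT-labelled libraries 26753721 to 31745969, without overlap. The mean fragment length was 317, 289 and 275 bases in DKO replicates 1, 2 and 3 and 258, 230 and 246 bases in WT replicates 1, 2 and 3, also without overlap. Fragment length therefore cannot be told apart from genotype in this design. Thinning every library to the smallest total left 1858 genes called over all genes, against 1856. Abcc12 was 79.0 ± 5.56 CPM (a gene's count over the TMM-scaled library total) in DKO-labelled libraries against 160 ± 3.93 CPM (SD, n = 3 each) where labelled WT, so transcript was still counted. Abcc5 was higher in DKO-labelled libraries, at 16.8 ± 0.190 against 11.4 ± 0.898 CPM (SD, n = 3 each). Gene counts alone cannot check the genotype without the design of the alleles, so groups are named by their labels. The Abcc5 difference was 0.56 on the log2 scale (edgeR adjusted p = 0.0225). It was 0.38 with the effective-length offset and 0.27, no longer called, on log2(TPM + 1) by limma (adjusted p = 0.107), and it was called in 3 of 6 fits that left out a library. Defining markers of testis cells were present. Summed over 8 markers each, round spermatid markers had 1849 to 2035 TPM (RSEM's abundance per transcript length) in DKO-labelled libraries and 1788 to 2024 in WT-labelled libraries. Spermatocyte markers had 1080 to 1233 against 983 to 1060 TPM, Sertoli markers 624 to 768 against 970 to 1165 TPM, and Leydig markers 864 to 1521 against 1499 to 3146 TPM. No marker of these lists was at 0 in every library.

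The start regions shown are those of the 4 genes whose DKO-labelled libraries all lay above WT-labelled libraries in CPM. Among all tested genes, 18.4% had that arrangement. Of the 4, Papolb alone was called, and for Dazl the groups overlapped in TPM. The sequences are from RefSeq on GRCm38.p6, 250 bases before to 50 bases after an annotated start, and 8 of the 10 genes had an entry. Capitals mark the motifs found.
Papolb (chr5:142530027-142530326, minus strand): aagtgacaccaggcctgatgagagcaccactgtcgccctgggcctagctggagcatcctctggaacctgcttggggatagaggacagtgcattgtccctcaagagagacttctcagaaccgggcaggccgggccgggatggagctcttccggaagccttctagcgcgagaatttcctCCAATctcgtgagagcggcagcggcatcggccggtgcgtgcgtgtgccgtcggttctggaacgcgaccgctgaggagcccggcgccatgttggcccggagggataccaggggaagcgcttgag
Ybx2 (chr11:69935649-69935948, plus strand): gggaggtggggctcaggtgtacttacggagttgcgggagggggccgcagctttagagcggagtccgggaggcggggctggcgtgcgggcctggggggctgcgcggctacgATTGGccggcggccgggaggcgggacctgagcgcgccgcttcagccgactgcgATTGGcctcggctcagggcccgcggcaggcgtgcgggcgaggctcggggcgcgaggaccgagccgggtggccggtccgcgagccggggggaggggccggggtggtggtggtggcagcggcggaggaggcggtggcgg
Dazl (chr17:50293571-50293870, minus strand): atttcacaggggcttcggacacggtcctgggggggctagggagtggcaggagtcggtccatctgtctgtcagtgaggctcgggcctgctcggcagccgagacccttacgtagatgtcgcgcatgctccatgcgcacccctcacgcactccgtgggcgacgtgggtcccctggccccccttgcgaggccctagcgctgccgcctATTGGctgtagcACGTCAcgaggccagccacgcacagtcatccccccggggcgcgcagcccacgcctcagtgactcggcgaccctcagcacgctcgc
Boll (chr1:55362679-55362978, minus strand): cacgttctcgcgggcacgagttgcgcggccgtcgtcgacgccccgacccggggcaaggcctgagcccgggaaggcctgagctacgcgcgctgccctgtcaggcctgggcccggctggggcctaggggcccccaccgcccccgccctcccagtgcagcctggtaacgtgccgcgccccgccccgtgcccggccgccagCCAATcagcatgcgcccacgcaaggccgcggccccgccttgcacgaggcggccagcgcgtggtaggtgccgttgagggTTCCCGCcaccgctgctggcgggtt

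Both strands were searched for the CCAAT box (CCAAT), the core of the cyclic AMP response element (TGACGT), the TATA box (TATAAA), a MYB site (AACNGTT) and an E2F site (GCGGGAA). None of these motifs overlaps another where matched in the sequences above. The inverted CCAAT box, ATTGG, is the core of the Y-box from which Y-box proteins take their name. CCAAT was found in 6 of the 10 start regions of these genes, and in 37.6% of the 16125 start regions of tested genes. The match lay 73 bases before the start in Papolb, 47 in Dazl and 53 in Boll, and Ybx2 held one at 140 and another at 87 bases before it. Ybx1 held matches at 135, 103 and 52 bases before its start and Elavl1 at 65 and 34. In Ybx1 and Elavl1 the groups overlapped in CPM. Dazl also held ACGTCA, the cyclic AMP element read on the other strand, 35 bases before its start, a motif that 10.1% of start regions held. Boll held an E2F match (7.3% of start regions), Cpeb1 a TATA match (8.0%), and no start region held the MYB letters (3.7%). Ybx2 and Boll each have another listed start, not shown, which held none of the 5 motifs.

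The 3′ untranslated regions of the same genes were searched for elements of the kinds that several of their own proteins read. For each gene, here and over all genes, the longest annotated region was taken. GENCODE M21 transcripts with the accession used in the files were found for 9 genes (not for Boll). The cytoplasmic polyadenylation element TTTTAT, which CPEB proteins bind, was present on the sense strand in 9 of 9, against 52.1% of 15584 tested genes. The median 3′ untranslated region was longer in the 9 (1852 bases) than over all of those genes (986 bases), and a longer region holds more matches. Per length, there were 2.14 matches per kilobase over the 9 and 0.981 over all genes, and 1.43 over the 8 without Cpeb2, whose region alone held 20. The 30-base windows around the last match are given for 5 genes, with the element in capitals.
Papolb: tgaagtctagtTTTTATtacgtgaatacca
Ybx2: ctctgaagccaTTTTATgaactgtcatgtg
Pabpc1: acaaattaatgTTTTATagaccctgggaaa
Dazl: agtcaaaattcTTTTATgtcaccaagtcag
Cpeb2: aatttagtttaTTTTATtgttatcttccag

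The AU-rich element TATTTAT, of the kind Elavl1 binds, was found in 5 of the 9 and in 27.1% of all genes, with 8 matches in the region of Elavl1 itself. The GU-rich element TGTTTGT, of the kind Celf1 binds, was found in 3 of the 9 and in 26.1% of all genes. Celf1 itself held 3 copies. The Pumilio letters TGTANATA were found in 3 of the 9, against 23.3% of all genes. The poly(A) signal AATAAA was found in 8 of the 9, against 80.3%, and Ybx2 was the gene without it. Per kilobase of 3′ untranslated region, the 9 genes and all genes held 0.680 and 0.286 AU-rich matches, 0.389 and 0.312 GU-rich matches, and 1.21 and 1.14 poly(A) signals. Elavl1 alone held 8 of the AU-rich matches, and no other gene of the 9 held more than 2. Pumilio matches were fewer per length in the 9, at 0.146 against 0.232. These are letter matches and not measured binding sites.

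Per length, the 10 genes spanned a wide range of abundance. Ybx2, the germ-cell Y-box protein that holds mRNA in storage, was the highest, at a median of 1773 TPM over the 6 libraries (1522 to 1903). Pabpc1, the general cytoplasmic poly(A)-binding protein, had a median of 1435 TPM (1406 to 1567), and its range overlapped that of Ybx2 although Ybx2 was above it within each of the 6 libraries. Ybx1, the more widely expressed Y-box protein, followed at 926 TPM (830 to 1078), then Papolb at 442 TPM (372 to 600) and Boll at 128 TPM (108 to 136), each without overlap with the next. Cpeb2 (87.2 TPM, 79.0 to 94.3) and Dazl (74.7 TPM, 71.6 to 86.9) overlapped in range, with Cpeb2 above in each of the 6 libraries. Elavl1 (16.3 TPM, 15.6 to 19.1) and Celf1 (16.2 TPM, 15.6 to 16.9) were not separated, with Elavl1 above in 3 of 6 libraries. Cpeb1, which is known for its role in meiotic prophase, was the lowest at 4.33 TPM (3.74 to 4.62).

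**Figure D1:**
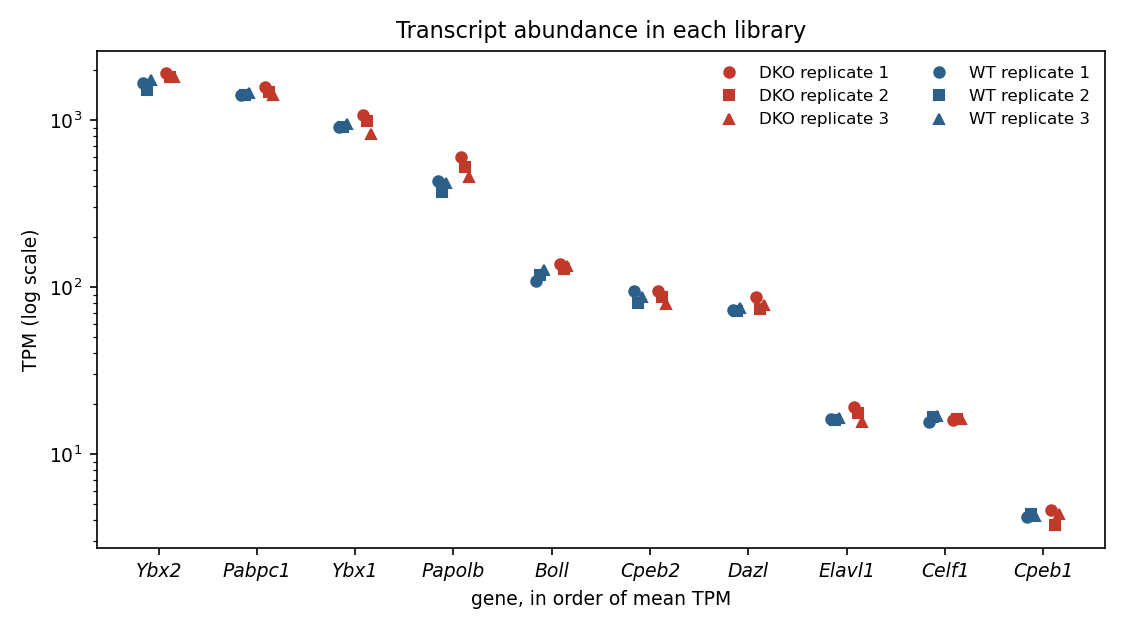
Transcript abundance of the 10 genes in TPM (vertical axis, log scale) in each of the 6 libraries, one point per library, with genes in order of their mean. The order runs from Ybx2 at 1522 to 1903 TPM to Cpeb1 at 3.74 to 4.62 TPM, and Elavl1 and Celf1 share a range.

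Only Papolb passed the test between the genotypes. Of the 10 genes, 1 was called higher and 0 lower in DKO-labelled libraries (edgeR quasi-likelihood test, Benjamini-Hochberg adjusted p under 0.05 over all tested genes). Over all genes, 10.8% were called, 5.75% higher and 5.1% lower, so 1 of 10 is near the background share. Without overlap between the groups in CPM were 4 of the 10, all with DKO-labelled libraries above, while 18.4% of all tested genes had that arrangement and 35.9% had either. At an unadjusted p under 0.05 there were 4 of the 10, as were 31.7% of all genes. The fitted log2 fold changes were above 0 for all 10 genes, from 0.04 for Celf1 to 0.42 for Papolb, with a median of 0.14 against -0.0042 over all tested genes. On the TPM scales and with fragment length as a covariate, fewer were above 0, at 7 and 3 of the 10.

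**Figure D2:**
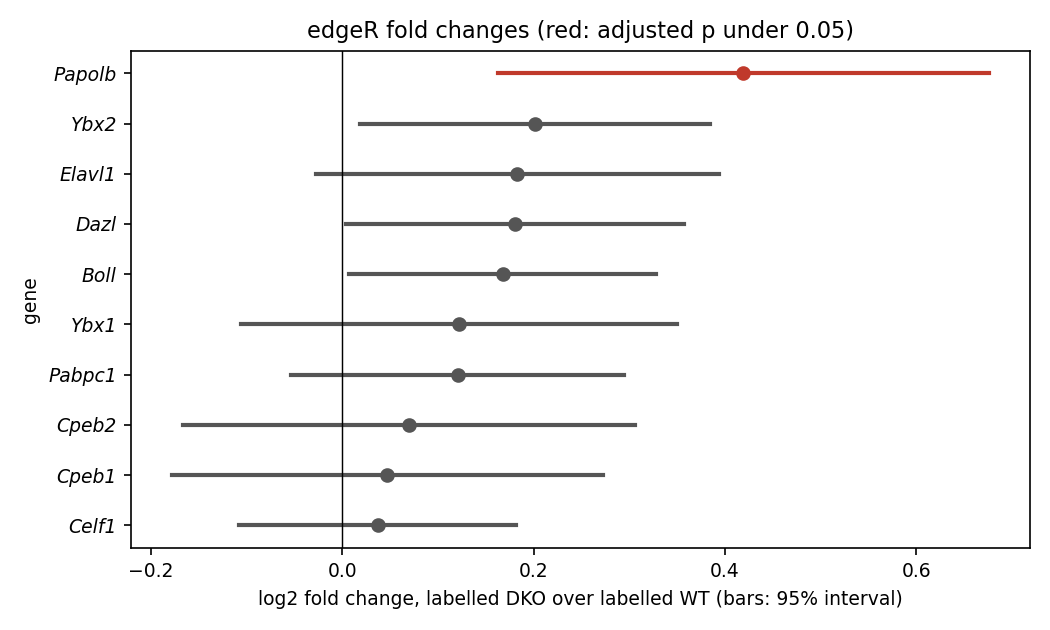
Fitted log2 fold change of each gene, labelled DKO over labelled WT (horizontal axis), with the 95% interval from the edgeR fit of 3 against 3 libraries. Papolb, at 0.42, is the gene past the adjusted threshold; the intervals of Ybx2, Dazl and Boll lie just above 0, and those of the other 6 genes include it.

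Papolb encodes the testis-specific poly(A) polymerase (TPAP), which lengthens the tails of selected mRNAs in the cytoplasm of spermatids. Its level was 866, 776 and 631 CPM in DKO replicates 1, 2 and 3 and 619, 493 and 587 CPM in WT replicates 1, 2 and 3. The lowest DKO-labelled library thus lay just above the highest labelled WT, and DKO replicate 1 was the highest of all. The means were 757 ± 119 and 566 ± 65.2 CPM (SD, n = 3 each). The level was 1.34-fold higher in DKO-labelled libraries (edgeR adjusted p = 0.0452; log2 fold change 0.42, SE 0.117, 95% interval 0.16 to 0.68). In TPM it was 600, 521 and 455 against 429, 372 and 421, again without overlap, but limma on log2(TPM + 1) gave 0.36 with an adjusted p of 0.0653. Within each group the library with longer fragments had more Papolb: 317, 289 and 275 bases stood beside 866, 776 and 631 CPM, and 258, 246 and 230 bases beside 619, 587 and 493 CPM. With fragment length as a covariate the log2 fold change was -0.11 (edgeR adjusted p = 0.999), a fit in which 1 gene was called in all. With an offset for the effective length of each gene it was 0.41 (edgeR adjusted p = 0.0473), and with libraries thinned to the same total 0.42 (edgeR adjusted p = 0.0389). The call was lost without DKO replicate 1 (0.30, adjusted p = 0.179), DKO replicate 2 (0.39, 0.102), WT replicate 2 (0.32, 0.150) or WT replicate 3 (0.45, 0.118), by the same edgeR test on 5 libraries.

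Papolb has a single exon and lies within an intron of Radil, a gene for a Rap-binding adhesion protein, on the same strand. In GENCODE M21 on GRCm38 it spans chr5:142525838-142530076, and in RefSeq chr5:142527740-142530076. The counts rest on the RefSeq length of 2337 bases, which leaves out 1902 bases at the 3′ end of the GENCODE model. The window of Papolb shown above lies in that outer part, and 1 of its 4 polyadenylation elements lies inside the RefSeq model. Reads from unspliced Radil RNA would be counted for Papolb. Radil itself was 43.6 CPM in DKO-labelled libraries and 48.3 CPM in WT-labelled libraries (log2 fold change -0.14; edgeR adjusted p = 0.259). Papola, the canonical nuclear poly(A) polymerase and the gene from which Papolb is thought to derive, did not pass the test. It was 181, 167 and 157 CPM against 146, 134 and 146 CPM, without overlap (edgeR adjusted p = 0.0571; log2 fold change 0.25, SE 0.0768). Papolb was 9.24 ± 0.876 times as abundant as Papola per length in DKO-labelled libraries and 8.12 ± 0.603 times in WT-labelled libraries (SD, n = 3 each; exact permutation test, two-sided, p = 0.2; adjusted p = 0.75 over 6 such ratios). The third member, Papolg, had a log2 fold change of 0.23 (edgeR adjusted p = 0.150).

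**Figure D3:**
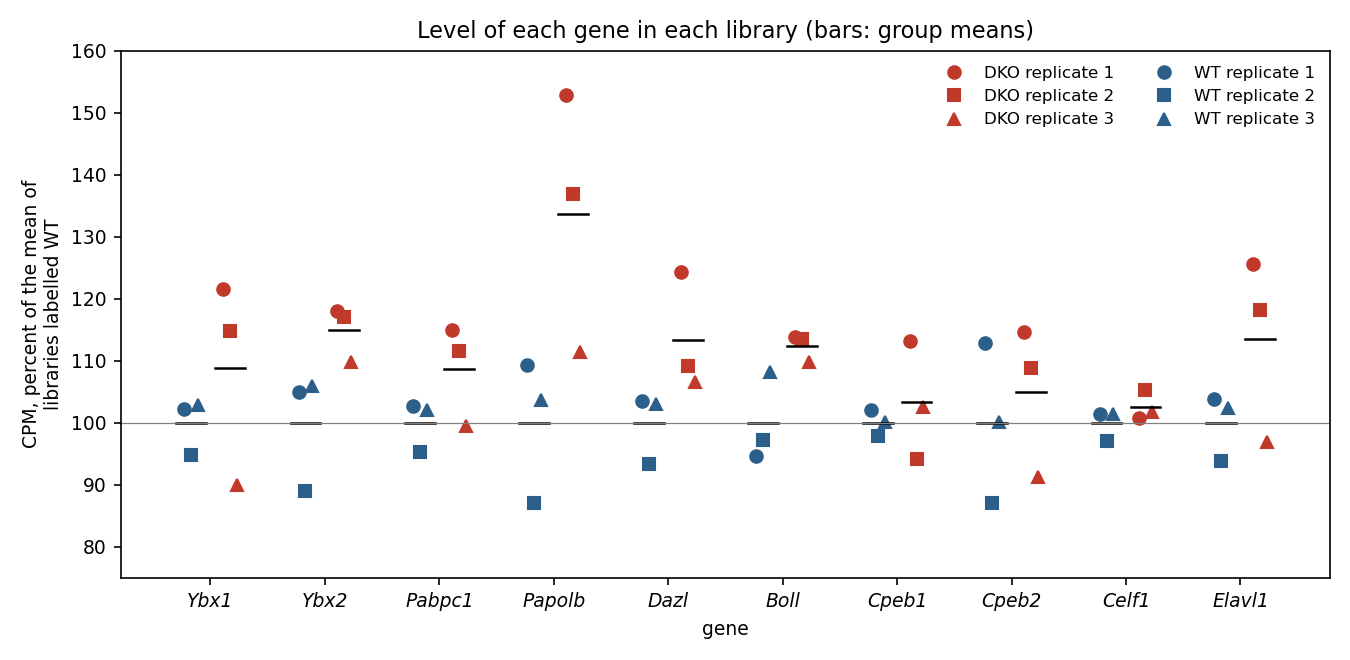
CPM of each gene in each library as a percent of the mean of WT-labelled libraries, with one symbol per replicate and bars for group means (n = 3 each). DKO-labelled libraries lie above all WT-labelled libraries for Ybx2, Papolb, Dazl and Boll, and DKO replicate 1 is the highest library of its group for 9 of the 10 genes.

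The Y-box genes package stored mRNA. Ybx2 was 1695, 1683 and 1577 CPM in DKO-labelled libraries and 1509, 1279 and 1522 CPM in WT-labelled libraries. The groups did not overlap, with WT replicate 2 the lowest, but the difference did not pass the adjusted threshold (edgeR adjusted p = 0.124; log2 fold change 0.20, SE 0.0837). The 95% interval ran from 1.01-fold to 1.31-fold. Ybx1 was 1443, 1362 and 1068 CPM against 1213, 1125 and 1221 CPM, and the groups overlapped because DKO replicate 3 was the lowest of all 6 libraries. Its log2 fold change was 0.12 (edgeR adjusted p = 0.450; SE 0.104), with an interval of 0.929-fold to 1.27-fold. Ybx3, the third Y-box gene, also overlapped between groups, at 1508 ± 117 against 1386 ± 72.0 CPM (SD, n = 3 each; log2 fold change 0.12; edgeR adjusted p = 0.320).

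Pabpc1 coats poly(A) tails and links them to the translation machinery. It was 2801, 2719 and 2423 CPM in DKO-labelled libraries and 2501, 2319 and 2486 CPM in WT-labelled libraries. The groups overlapped, since DKO replicate 3 lay below 2 of the WT-labelled libraries. The log2 fold change was 0.12 (edgeR adjusted p = 0.320; SE 0.0795; interval 0.964-fold to 1.23-fold). Among its relatives, Pabpc2, a testis retrogene copy, was 930 ± 43.7 against 852 ± 43.5 CPM (edgeR adjusted p = 0.262) and Pabpc6 483 ± 23.3 against 413 ± 29.6 CPM (SD, n = 3 each; edgeR adjusted p = 0.0709). Pabpc6 did not overlap between groups. The nuclear Pabpn1 had a log2 fold change of 0.12 (edgeR adjusted p = 0.277). The deposited counts of all 10 genes were whole numbers in each library, within 0.005. Fragments that map both to Pabpc1 and to its copies were not examined.

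Dazl and Boll are germ-cell RNA-binding proteins of the DAZ family, Dazl acting from early germ cells onward and Boll in meiosis and after. Dazl was 164, 144 and 141 CPM in DKO-labelled libraries and 137, 123 and 136 CPM in WT-labelled libraries. The groups did not overlap in CPM, though they did in TPM (74.3 to 86.9 against 71.6 to 75.2). The log2 fold change was 0.18 (edgeR adjusted p = 0.150; SE 0.0807; interval 0.0037 to 0.36 on the log2 scale). Boll was 74.4, 74.1 and 71.7 CPM against 61.8, 63.5 and 70.7 CPM, so WT replicate 3 lay close to the DKO-labelled libraries. Its log2 fold change was 0.17 (edgeR adjusted p = 0.141; SE 0.0733; interval 0.0072 to 0.33 on the log2 scale). Boll has the shortest transcripts of the 10, and with the effective-length offset its log2 fold change was 0.22 (edgeR adjusted p = 0.0750). With fragment length as a covariate, Boll stayed at 0.14 while Dazl was at -0.0927, neither past the threshold.

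Cpeb1 and Cpeb2 bind the polyadenylation element and hold back or promote tail lengthening. Cpeb1 was 9.18, 7.63 and 8.32 CPM in DKO-labelled libraries and 8.27, 7.94 and 8.11 CPM in WT-labelled libraries. These levels rest on 218 to 562 counts per library, the fewest of the 10 genes, and the DKO-labelled libraries enclosed WT-labelled libraries. The log2 fold change was 0.05 (edgeR adjusted p = 0.787; SE 0.103; interval 0.884-fold to 1.21-fold). Cpeb2, known from round spermatids, was 436, 414 and 347 CPM against 429, 331 and 381 CPM, and the groups overlapped. Its log2 fold change was 0.07 (edgeR adjusted p = 0.693; SE 0.108; interval 0.891-fold to 1.24-fold). Of the other CPEB genes, Cpeb3 was 98.2 ± 13.2 against 98.3 ± 7.51 CPM and Cpeb4 85.3 ± 7.93 against 71.5 ± 8.15 CPM (SD, n = 3 each; edgeR adjusted p = 0.995 and 0.0964).

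Celf1 binds GU-rich elements and promotes deadenylation and splicing choices, and Elavl1, also called HuR, binds AU-rich elements and stabilizes mRNA. Celf1 was 63.3, 66.1 and 63.9 CPM in DKO-labelled libraries and 63.7, 60.9 and 63.7 CPM in WT-labelled libraries. It was the steadiest of the 10 genes, with a log2 fold change of 0.04 (edgeR adjusted p = 0.736; SE 0.0660) and an interval of 0.928-fold to 1.13-fold. Elavl1 was 78.0, 73.4 and 60.2 CPM against 64.5, 58.3 and 63.6 CPM. DKO replicate 3 lay among the WT-labelled libraries and the other 2 above them. The log2 fold change was 0.18 (edgeR adjusted p = 0.214; SE 0.0960), and without DKO replicate 3 it was 0.29 (edgeR adjusted p = 0.0313). Among the relatives, Celf3 was lower in each DKO-labelled library, at 38.3, 38.0 and 46.9 against 55.8, 49.2 and 47.5 CPM, without passing the threshold (edgeR adjusted p = 0.0625). Celf5 overlapped between groups (edgeR adjusted p = 0.369). Elavl2 was the 1 called gene of 19 relatives and is named after its value was seen. Over all tested genes, 5.75% were called higher. Elavl2 was 5.01 ± 0.525 against 3.55 ± 0.476 CPM (SD, n = 3 each; log2 fold change 0.50; edgeR adjusted p = 0.0478).

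The abundance-weighted length of transcripts did not separate the groups in the 5 genes where it varied. A shift between transcripts of similar length would hardly change it, so the mix of transcripts itself was not tested. Of the 10 genes, 5 have several annotated transcripts, and their abundance-weighted length is a readout apart from the counts. It overlapped between the groups in all 5 (exact permutation test, two-sided, adjusted p = 0.875 to 1 over the 5), where 3 against 3 libraries cannot give a raw p below 0.1. Among all tested genes with a varying length, 17.1% had no overlap. Celf1 had the widest spread, at 5971 ± 145 against 6030 ± 112 bases (SD, n = 3 each), and in the other 4 genes the group means differed by less than 1 base.

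Libraries differed from one another in the same way across most of the genes. DKO replicate 1 was the highest library of its group for 9 of the 10 genes and DKO replicate 3 the lowest for 8. WT replicate 2 was the lowest of its group for 9. The same counts were not made over all tested genes, so they are not shown to be particular to the 10. DKO replicate 1 had the longest and WT replicate 2 the shortest fragments of the 6 libraries. Their part in the positive fold changes was not tested apart from genotype.

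Other genes of mRNA storage and tail control were taken from lists chosen with earlier results of these data known. Outside the 10 genes, and leaving aside the stored mRNAs, 121 listed genes were tested, of which 18 were called higher and 4 lower in DKO-labelled libraries. Over all tested genes, 5.75% were called higher and 5.1% lower. Above 0 were 81 of the 121, against 8440 of 17110 tested genes. The median log2 fold change of the 121 was 0.11, against -0.0042 over all genes. That median was 0.04 on log2(TPM + 1), 0.05 on log2(TPM + 0.1) and -0.02 with fragment length as a covariate. On log2(TPM + 1) the split of calls was 2 higher and 2 lower, where 279 higher and 456 lower genes were called in all, against 984 higher and 872 lower by edgeR on counts. None of these genes, the stored mRNAs still left aside, was called without DKO replicate 1, WT replicate 2 or WT replicate 3. In those fits 11, 13 and 7 genes were called in all. Without DKO replicate 2 there were 0 higher and 2 lower, and without DKO replicate 3 there were 36 higher and 4 lower. With the effective-length offset there were 13 higher and 4 lower. With fragment length as a covariate none was called.

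**Figure D4:**
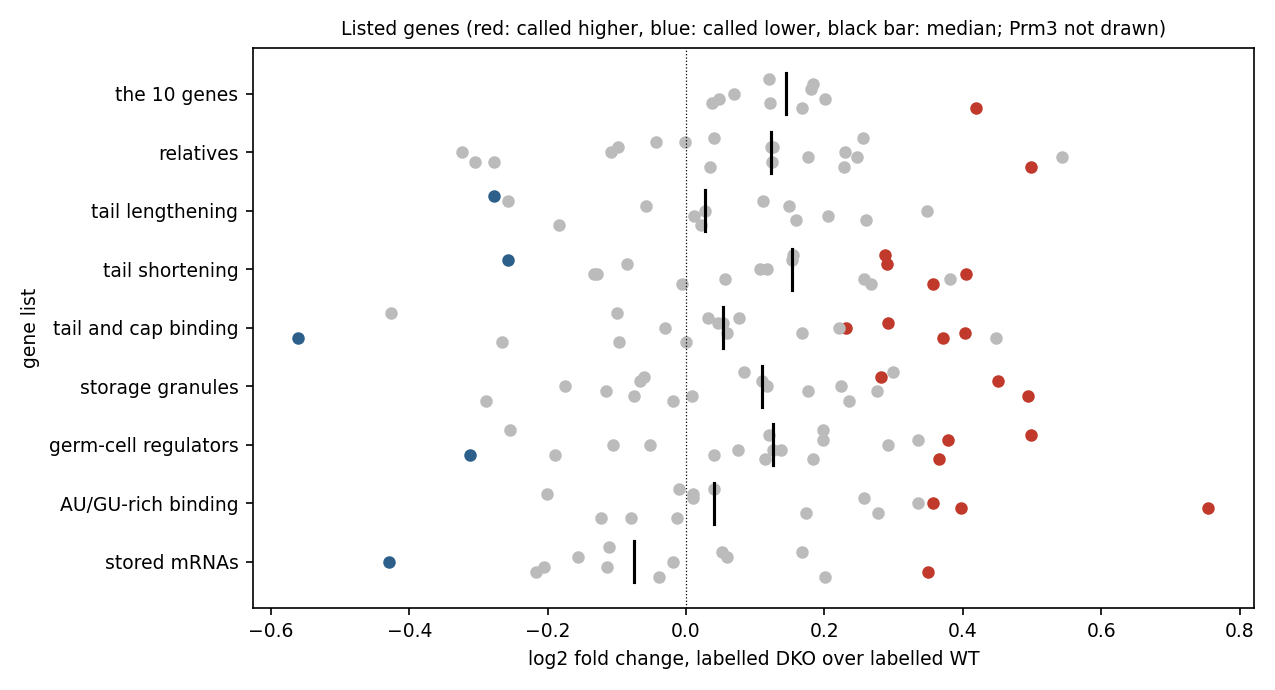
Log2 fold change (horizontal axis, labelled DKO over labelled WT) of each tested gene in 9 lists by role, with a black bar at the median of each list. Called genes lie mostly to the right, with 18 higher and 4 lower over the lists between the 10 genes and the stored mRNAs, and Prm3, at -2.64, is not drawn. The lists were chosen with results known, and of all tested genes 5.75% were called higher and 5.1% lower.

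The counts by list that follow stand beside 5.75% of all tested genes called higher and 5.1% lower, and they are descriptions, since the lists were chosen with results known. Among the genes that shorten tails, 4 of 17 were called higher and 1 lower. Cnot7 and Cnot6, catalytic subunits of the CCR4-NOT deadenylase complex, rose 1.32-fold and 1.28-fold (edgeR adjusted p = 0.0349 and 0.0391). Cnot7 was 104, 88.0 and 79.4 CPM in DKO-labelled libraries and 66.7, 64.4 and 73.5 CPM in WT-labelled libraries. Cnot2, a scaffold subunit, and Cnot4, a ubiquitin ligase tied to the complex, had log2 fold changes of 0.29 and 0.29 (edgeR adjusted p = 0.0409 and 0.0475), while Cnot3, another scaffold subunit, was lower at -0.26 (edgeR adjusted p = 0.0459). Of 13 genes for tail lengthening and cleavage, 0 were called higher and 1 lower, Fam46b, a non-canonical poly(A) polymerase, at 52.3 ± 3.71 against 63.4 ± 1.62 CPM (SD, n = 3 each; edgeR adjusted p = 0.0402).

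Of 19 tail-binding and cap-binding genes, 4 were called higher and 1 lower. The higher genes were Eif4a2, an initiation helicase, Paip1, a partner of poly(A)-binding protein, Eif4g2, an initiation scaffold, and Eif4e, the cap-binding protein. Their log2 fold changes were 0.37, 0.40, 0.29 and 0.23 (edgeR adjusted p = 0.0309, 0.0358, 0.0378 and 0.0493). Eif4ebp3, which encodes an inhibitor of the cap-binding protein, was lower, at 2.95 ± 0.585 against 4.35 ± 0.340 CPM (SD, n = 3 each; edgeR adjusted p = 0.0494). Of 19 storage granule and decapping genes, 3 were called higher and 0 lower. These were Dhx36, a G-quadruplex helicase, Xrn1, an exonuclease that degrades decapped mRNA, and G3bp2, a stress granule protein, with log2 fold changes of 0.49, 0.45 and 0.28 (edgeR adjusted p = 0.0363, 0.0452 and 0.0452). With the effective-length offset, Xrn1, G3bp2, Eif4e, Eif4ebp3 and the tail-shortening gene Cnot4 were not called (edgeR adjusted p = 0.05035 to 0.05783).

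Of 19 germ-cell RNA-binding regulators, 3 were called higher and 1 lower. Rbm46, a germ-cell protein needed for meiosis, was 72.1, 59.2 and 50.3 CPM in DKO-labelled libraries and 43.6, 39.0 and 45.9 CPM in WT-labelled libraries (log2 fold change 0.50; edgeR adjusted p = 0.0340). Fxr1, a relative of the fragile X protein, and Strbp, a spermatid RNA-binding protein, had log2 fold changes of 0.38 and 0.37 (edgeR adjusted p = 0.0358 and 0.0333). Adad2, a testis protein with an adenosine deaminase domain, was lower at -0.31 (edgeR adjusted p = 0.0395). Of 15 AU-rich and GU-rich element binding genes, 3 were called higher and 0 lower: Igf2bp3, Qk and the sparsely expressed Igf2bp2 (2.11 ± 0.358 against 1.24 ± 0.199 CPM, SD, n = 3 each), with log2 fold changes of 0.36, 0.40 and 0.75 (edgeR adjusted p = 0.0372, 0.0397 and 0.0412). In each of these called genes the groups did not overlap. Of 8 spermatocyte markers 2 were called higher and 5 had log2 fold changes above 0, with a median of 0.21 over the list. Of 8 round spermatid markers none was called and 5 were above 0, with a median of 0.02. Of 8 markers each of Sertoli and Leydig cells, 4 and 3 were called lower, with medians of -0.36 and -0.49. The summed levels of these lists are given above, and their part in these values was not tested.

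Of 14 mRNAs known for delayed translation in spermatids, 1 was called higher and 2 lower, with a median log2 fold change of -0.08. Akap4, a scaffold of the sperm fibrous sheath, was 2419 ± 113 against 1898 ± 172 CPM (SD, n = 3 each; edgeR adjusted p = 0.0341). Gapdhs, the sperm glyceraldehyde phosphate dehydrogenase, was lower, at 1241, 1653 and 1105 against 1857, 1694 and 1833 CPM (edgeR adjusted p = 0.04997). Prm3 was also lower, at 27.8, 39.2 and 21.9 against 155, 247 and 152 CPM (log2 fold change -2.64; edgeR adjusted p = 0.000763). The protamine and transition protein mRNAs Prm1, Prm2, Tnp1 and Tnp2, the classic cargo of Y-box storage, had log2 fold changes of -0.22, -0.11, -0.16 and 0.05, none called (edgeR adjusted p = 0.191 to 0.760). In TPM the means in DKO-labelled and WT-labelled libraries were 31690 and 29736 for Prm1 and 39806 and 39762 for Prm2. They were 23351 and 21503 for Tnp1 and 12334 and 10694 for Tnp2. On that scale none of these means was lower in DKO-labelled libraries. Of the 6 fits that left out a library, Prm3 was called in 6, Akap4 in 2 and Gapdhs in 1, and Gapdhs was not called with the effective-length offset (edgeR adjusted p = 0.0577).

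**Figure D5:**
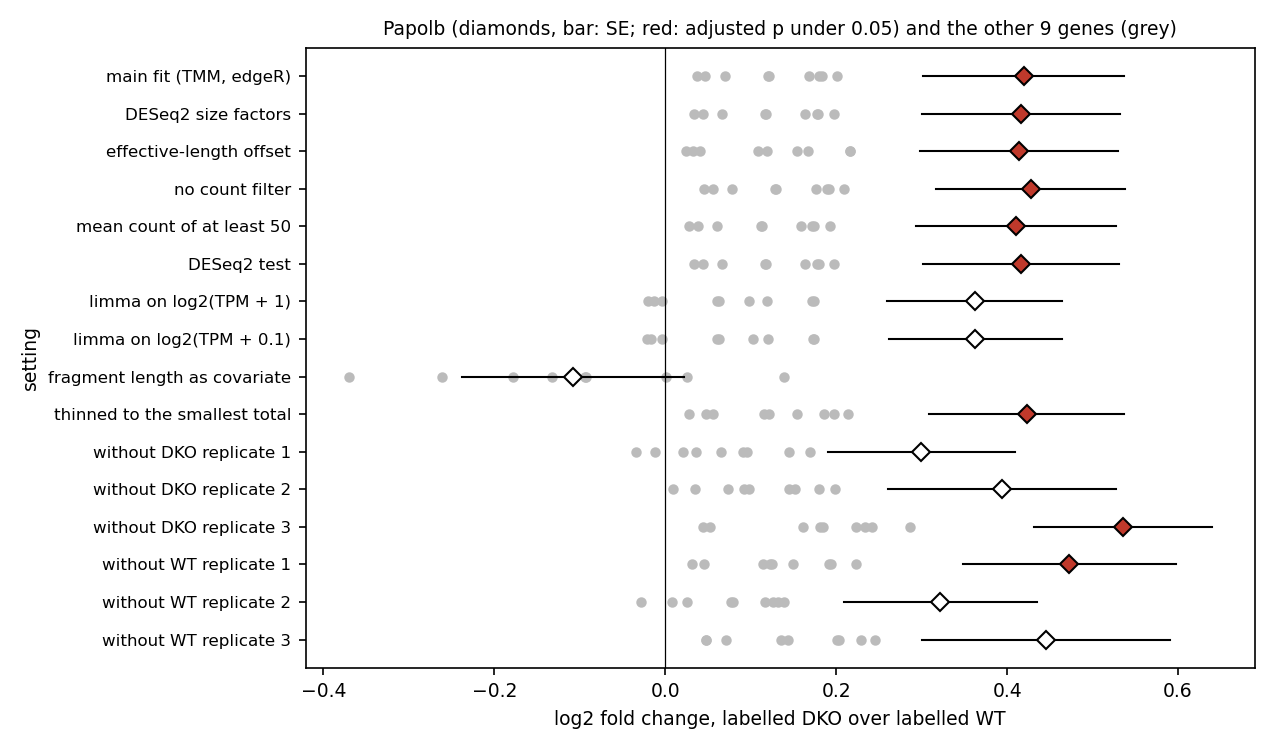
Log2 fold change (horizontal axis) of Papolb with its SE (diamonds and bars) and of the other 9 genes (grey points) under each processing setting. Papolb lies between 0.30 and 0.54 in every setting drawn except with fragment length as a covariate, where it is -0.11.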

How the data were processed

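RNA from whole testes was sequenced in 6 libraries. Per the submitters' processing notes, STAR 2.7.0f, RSEM 1.2.31 and the mm10 build were used; DESeq2 1.12.3 is also named there. Per the file headers, each deposited file gives an expected count, TPM and FPKM per gene, with an abundance-weighted length. Deposited expected counts are estimated fragments per gene. Deposited TPM values are divided by effective length and sum alike in every library. Deposited FPKM values were not used. Strand setting and annotation version are not given in the sources used here.

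Expected counts were rounded, filtered by filterByExpr, scaled by TMM and tested by edgeR 4.0.16 (quasi-likelihood, genotype as the only term, all 6 libraries) with Benjamini-Hochberg adjustment over all tested genes. SE is the absolute log2 fold change over the square root of F, and 95% intervals use the t distribution of the fit. Fragment length was recovered as length minus effective length, plus 1, taken as a median over genes longer than 3000 bases. Single values were compared by exact permutation. Counts of 1 gene carry biological and counting error together, and the number of libraries limits precision. The edgeR step was tested on simulated data. Alternatives used DESeq2 1.42.0 and limma 3.58.1. The members and lists were chosen with earlier results of these data known. Named were the 10 genes, up to 9 relatives by level, called listed genes (at most 4 higher and 4 lower per list, by p) and both targeted genes. A few other relatives and stored mRNAs (Papolg, Elavl2, Prm1, Prm2, Tnp1, Tnp2) and Radil were named after their values were seen. Marker lists for spermatogonia (median log2 fold change 0.0043), elongating spermatids (-0.07), peritubular cells (-0.32), macrophages (-0.30) and blood (0.21) were also read. In these lists, 2 of 6 peritubular markers were called lower and 1 of 8 elongating spermatid markers higher, and no other marker was called.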

Additional observations from a re-analysis of the deposited data

How the results depend on the processing

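The DESeq2 test used its own size factors, and limma on TPM used neither counts nor TMM; the other alternatives changed 1 choice. Papolb was higher and called in 6 of the 9 alternatives that kept all libraries, and in 2 of 6 that left out a library. The number of the 10 genes called was 0 at an adjusted p under 0.01, on log2(TPM + 1), on log2(TPM + 0.1) and with fragment length as a covariate, and ranged from 0 to 2 across fits leaving out a replicate. Their median log2 fold change was -0.10 with fragment length as a covariate and from 0.0779 to 0.20 leaving out a replicate. In the covariate fit, the log2 fold changes reversed for Ybx1 (-0.26), Pabpc1 (-0.0935), Papolb (-0.11), Dazl (-0.0927), Cpeb1 (-0.13), Cpeb2 (-0.37) and Elavl1 (-0.18), none called. On log2(TPM + 1) and log2(TPM + 0.1), those of Cpeb1 (-0.0127 and -0.0162), Cpeb2 (-0.0035 and -0.0035) and Celf1 (-0.0196 and -0.0207) reversed. Without DKO replicate 1 Cpeb1 was at -0.0343 and Cpeb2 at -0.0117, and without WT replicate 2 Cpeb2 was at -0.0287; over all fits leaving out a replicate they ranged from -0.0343 to 0.0986 and from -0.0287 to 0.16. The cause was not tested. Over all genes, 7 had an adjusted p under 0.01, and calls numbered 2943 by DESeq2, 735 on log2(TPM + 1), 947 on log2(TPM + 0.1), 1 with fragment length as a covariate (545 at an unadjusted p under 0.05), and from 7 to 3029 leaving out a replicate, against 1856. The fewest counts lie behind Cpeb1. No paired analysis was possible because the replicate numbers used here follow the order of deposition and the labels pair no animals.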
